A study of Mus musculus with 3 samples.

Results

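The genes described here encode 10 small calcium-binding proteins: the S100 proteins S100a5, S100a1, S100a6, S100a10, S100a13 and S100b, the buffers Calb1 (calbindin) and Calb2 (calretinin), and the neuronal calcium sensors Hpca (hippocalcin) and Ncald (neurocalcin delta). They were chosen by name, and all 10 are among the 34617 gene rows of the deposited table. The table holds 1 RNA library for each of 2 groups, both made from sorted cells of the main olfactory epithelium of mice aged 4 weeks. The mOSN library was made from EGFP-positive cells, with the reporter placed behind an internal ribosome entry site at the olfactory marker protein gene (OMP-ires-EGFP), in strain C57BL/6J, and stands for mature olfactory sensory neurons. The O/Tet3 library came from FVB mice (labelled Fvb) with the alleles OMP-tTA and tetO-Tet3-GFP, in which a transactivator made from the Omp locus switches on a Tet3-GFP transgene. Tet3 is an enzyme that oxidises 5-methylcytosine to 5-hydroxymethylcytosine. The driver acts only in cells that have turned on Omp, the number of animals behind each library is not given in the labels, and the gate of the O/Tet3 sort is not given either. A DNA sample of O/Tet3 mice completes the 3 samples and is not analysed here.

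Odorant binding opens cyclic nucleotide-gated channels in the cilia of an olfactory neuron, and calcium enters. Calcium then both carries part of the response and, through calcium-binding proteins, feeds back on the channels and enzymes of the cascade. Most of the proteins described here bind calcium through the helix-loop-helix motif called an EF hand. S100 proteins pair up and expose a surface for target proteins, calbindin and calretinin mainly buffer the ion, and hippocalcin and neurocalcin move to membranes when calcium binds. S100a5 and Calb2 are known as genes whose level in olfactory neurons follows odor-driven activity.

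With 1 library per group no test between groups was possible, and all differences below describe these 2 libraries. Genotype, strain and library differ together and cannot be told apart, and in sorted bulk RNA fewer cells of a type and less RNA per cell cannot be told apart. As a check of the transgene, Tet3 had a value of 3.72 in the mOSN library and 39.1 times as much, 145, in the O/Tet3 library. The labelled cell type was checked with 9 markers of mature olfactory neurons. All 9 were present in both libraries, at 77.7 to 1518 in mOSN and 15.7 to 285 in O/Tet3, and all 9 were lower in O/Tet3, by 2.14-fold (Omp) to 6.28-fold (Cnga2). The read depth is unknown. Values of low genes move in steps, and the most frequent step makes a single read worth 1.88 times as much in O/Tet3, so that low values there rest on fewer reads.

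S100a5 and S100a6 lie next to each other in the S100 gene cluster of chromosome 3, with no protein-coding gene between them, and they differed in opposite directions between the libraries. Their upstream sequences are shown for that reason. Each is the 250 bases before the start site in the RefSeq promoter table (build GRCm38.p6, plus strand, chr3:90608272-90608521 for S100a5 and chr3:90612644-90612893 for S100a6), with CpG dinucleotides, the sites that DNA methyltransferases and Tet enzymes act on, in capitals.
S100a5: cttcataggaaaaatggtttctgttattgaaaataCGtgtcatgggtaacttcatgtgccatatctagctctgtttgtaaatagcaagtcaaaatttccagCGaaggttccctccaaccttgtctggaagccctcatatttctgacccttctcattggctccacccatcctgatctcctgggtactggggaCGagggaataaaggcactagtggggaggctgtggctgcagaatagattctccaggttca
S100a6: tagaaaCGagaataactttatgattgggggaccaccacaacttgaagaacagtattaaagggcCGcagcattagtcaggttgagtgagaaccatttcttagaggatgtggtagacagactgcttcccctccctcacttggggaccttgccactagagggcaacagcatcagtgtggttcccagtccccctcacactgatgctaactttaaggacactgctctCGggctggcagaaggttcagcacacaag

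Both windows hold 3 CpG dinucleotides, where the median of all 32851 windows of this length is 6 and 29.03% hold fewer than 3. The G+C content is 46% for S100a5 and 50% for S100a6, against a median of 52.4%. Neither window holds, on either strand, the cyclic AMP response element TGACGTCA (in 1.55% of all windows), its half-site CGTCA (17.8%, which the full element contains), the TATA box TATAAA (12.4%) or the homeodomain core TAATTA (4.84%). Among the other members with a window in that table, S100b has 2 CpG dinucleotides, S100a1 has 8 and S100a13 has 13, and the 3 windows of Hpca have 3, 6 and 16. Only the S100a13 window holds any of the motifs, 1 CGTCA half-site that ends 216 bases before the start. The upstream windows of S100a1 and S100a13 overlap, since these genes start close together on opposite strands.

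Of the 10 genes, S100a5 was lower in the O/Tet3 library, S100a6, Calb2 and S100a1 were higher, S100a13 and Ncald were close in both, and S100a10, S100b, Calb1 and Hpca were below 1 in both. A row was compared where at least 1 library reached a value of 1, and was called where the log2 ratio of value + 1, O/Tet3 minus mOSN, was at least 1 in size. A difference on this scale understates that of low genes, so folds are given on the values themselves. Of the 10 genes 6 were compared, and each of them reached 1 in both libraries. Of these, 3 were called higher and 1 lower, where 16.5% of all 12943 compared rows were called higher and 12.0% lower. The median log2 ratio of the 6 genes was 0.70 against 0.21 over all compared rows. With so few genes, called in both directions, these counts describe the 6 genes one by one rather than a common shift.

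**Figure D1:**
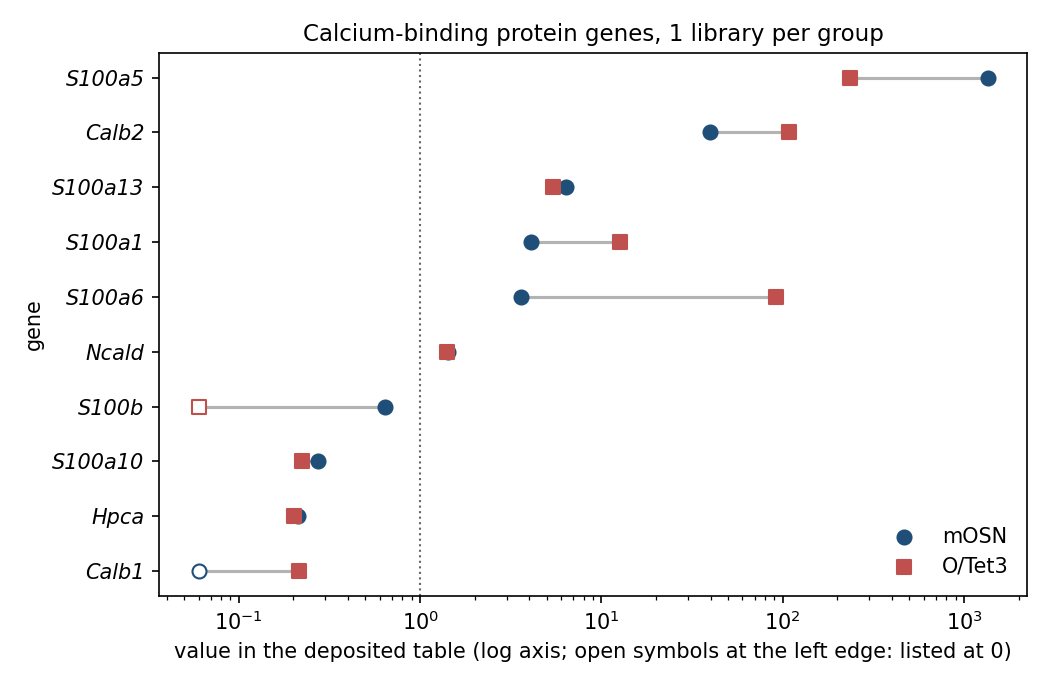
Values of the 10 genes in the mOSN library (circles) and the O/Tet3 library (squares) on a log axis, ordered by the mOSN value; there is 1 library per group, so no error bars. The dotted line marks the floor of 1, and open symbols mark S100b and Calb1, each listed at 0 in 1 library. Among the genes above 0 in both libraries, the widest gaps are those of S100a5, at 1356 and 235, and S100a6, at 3.61 and 92.0. The drawn gaps of S100b and Calb1 depend on where a 0 is placed.

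S100a5 was the most abundant of the 10 in both libraries. Its value was 1356 in the mOSN library and 235 in the O/Tet3 library, which is 5.78-fold lower (log2 ratio −2.53). It held rank 19 among all rows in mOSN and rank 82 in O/Tet3, and 1.63% of compared rows had a lower log2 ratio. The fold lies within the range of the 9 mature neuron markers. Per unit of Omp, however, S100a5 stood at 4.55 in mOSN and 1.69 in O/Tet3, since Omp itself, at 298 and 139, differed least among those markers. The Omp locus carries the reporter in mOSN and the driver in O/Tet3. What these alleles do to the Omp value, and so to each value per unit of Omp, was not tested. The genes whose pair of log2 values lay nearest to that of S100a5, among 8262 named genes that reached 1 in both libraries, were Stoml3, Gnb1 and Stom. Stoml3, a stomatin-like membrane protein of olfactory cilia that is also 1 of the 9 markers, was at 1518 and 285, a distance of 0.32 in log2 units. Gnb1, a G protein beta subunit, was at 800 and 186, a distance of 0.83, and Stom, encoding stomatin, at 751 and 132, a distance of 1.18. Few rows are as abundant as S100a5, so its nearest genes lie farther off than those of Calb2 below. Their nearness rests on 2 libraries only.

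S100a6, also called calcyclin, differed most of the 10. It went from 3.61 in the mOSN library to 92.0 in the O/Tet3 library, a 25.5-fold higher value (log2 ratio 4.33). Its rank went from 6934 to 250, and 0.433% of compared rows had a higher log2 ratio. Per unit of Omp it stood at 0.0121 in mOSN and 0.661 in O/Tet3. S100a6 binds the calcyclin-binding protein encoded by Cacybp, which was at 30.5 and 58.5, 1.92-fold higher and short of the threshold (log2 ratio 0.92).

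S100a1, an S100 protein best known from heart and skeletal muscle, was at 4.10 and 12.7, 3.09-fold higher (log2 ratio 1.42). S100a13, which takes part in the secretion of fibroblast growth factor 1, was at 6.38 and 5.38 (log2 ratio −0.21), so that the order of these genes was reversed between the libraries. The annotated spans of S100a1 and S100a13 overlap on opposite strands. Since the strand setting of the counting is not given, reads in the overlap could belong to either gene, and their separate values carry that uncertainty. In the RefSeq annotation S100a5, S100a6, S100a10, S100b, Calb1 and Calb2 overlap no other gene.

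S100a10, the partner of annexin A2 and an S100 protein that has lost calcium binding, was low in both, at 0.274 in the mOSN library and at 0.223 in the O/Tet3 library. Anxa2, which encodes that annexin, was low as well, at 0.925 and 0.226 (named after its values were seen). S100b, a marker of glia, had a value of 0.645 in mOSN, while O/Tet3 lists it at 0. Such a 0 may stand for an estimate that failed, so no fold is given. S100b is 1 of 7 markers of olfactory ensheathing glia, and the others went in both directions. Sox10, a defining transcription factor of these glia, was at 0.0327 and listed at 0. Fabp7 was at 4.78 and 0.0607, while Apod, encoding apolipoprotein D, was at 2.50 and 12.2. The summed value of the 7 markers was 10.2 in mOSN and 14.9 in O/Tet3, 5 of them were lower in O/Tet3 and 2 higher, and their part in the S100b values was not tested.

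Calb2, encoding calretinin, was the second most abundant of the 10 and was higher in the O/Tet3 library, at 39.7 and 108 (2.72-fold, log2 ratio 1.42). Its rank went from 582 to 202, and 7.64% of compared rows had a higher log2 ratio. Per unit of Omp it stood at 0.133 in mOSN and 0.776 in O/Tet3. Calb1, encoding the related buffer calbindin, had a value of 0.214 in O/Tet3, and the mOSN library lists it at 0. The genes nearest to Calb2 by the same measure were Cct2, a subunit of the cytosolic chaperonin, at 38.7 and 109, Rplp1, a ribosomal protein, at 39.1 and 103, and Eef1b2, a translation elongation factor, at 40.3 and 113. They lay 0.0361 to 0.0732 log2 units from Calb2.

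Markers of immature olfactory neurons went partly the way of Calb2. Of 6 such markers 2 were called higher and 0 lower, where 16.5% of all compared rows were called higher and 12.0% lower. By value 4 were higher in O/Tet3 and 2 lower. The median log2 ratio was 0.73 against 0.21 over all compared rows, and their sums were 90.3 (mOSN) and 117 (O/Tet3). These markers were not recounted under the rescalings described below, of which both lower each of their ratios. Gap43, a growth cone protein, was at 6.41 and 34.8, and Dpysl3 was at 3.23 and 8.22. Dcx, encoding doublecortin and highest of the list in mOSN, was at 29.0 and 19.1, and Stmn2, highest in O/Tet3, was at 27.7 and 39.3. Tubb3, with the lowest log2 ratio of the list (−0.74), was at 23.6 and 13.7, named after its values were seen. The part of such cells in the Calb2, S100a1 and S100a6 values was not tested.

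The neuronal calcium sensors among the 10 genes had close values in both libraries, but near or below the floor of 1, where the number of reads is unknown. Ncald was at 1.42 in the mOSN library and at 1.40 in the O/Tet3 library, 1.02-fold apart (log2 ratio −0.01). Hpca, best known from the hippocampus, was at 0.214 and 0.201 and was not compared. In the annotation Hpca overlaps Tmem54, and the long span of Ncald overlaps 7 other annotated genes.

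**Figure D2:**
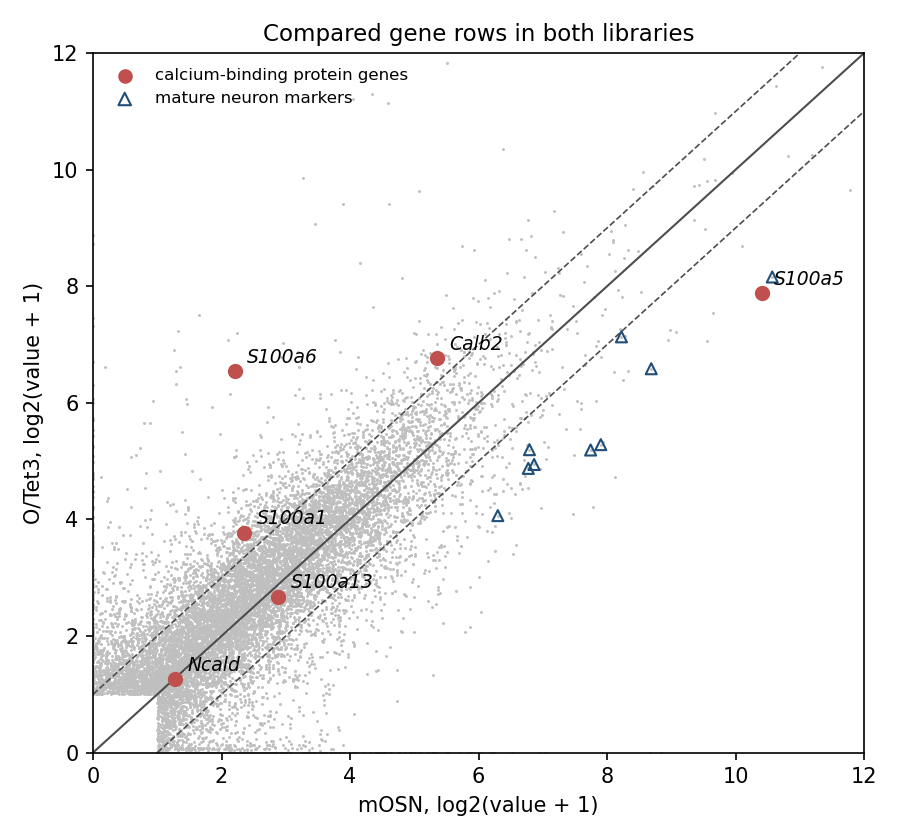
log2(value + 1) in mOSN (x axis) and O/Tet3 (y axis) for the compared gene rows (grey), the 6 compared calcium-binding protein genes (filled circles) and 9 mature neuron markers (triangles). The solid line marks equal values, the dashed lines a log2 ratio of 1 in either direction, and rows above 12 on either axis are not drawn. S100a5 lies among the triangles below the lower dashed line, while S100a6, S100a1 and Calb2 lie above the upper one.

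Of the 4 calls, those of S100a5 and S100a6 held under both rescalings tried, and those of S100a1 and Calb2 under 1 of them. Over the 9934 rows that reached 1 in both libraries the median log2 ratio was 0.21. After this shift was subtracted, S100a5 stood at −2.73, S100a6 at 4.13, S100a1 at 1.22 and Calb2 at 1.21, and the same 3 genes were called higher and S100a5 lower. Another rescaling, chosen after seeing the data, rests on the 6 largest rows of each library, which held 90.05% (mOSN) and 96.9% (O/Tet3) of the library sum. The sum of all other rows was 1.43 times as large in O/Tet3. With these sums made equal, S100a5 stood at −3.04 and S100a6 at 3.82, while S100a1, at 0.95, and Calb2, at 0.91, kept their direction and missed the threshold. Among called rows the higher ones were 57.9% as deposited, 42.8% after the shift and 30.0% with equal sums, where the median over all compared rows was −0.19.

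The remaining S100 genes place S100a5 and S100a6 within their family. Of 12 further S100 genes looked for, 11 were matched, S100a7l2 through an older name, and S100a2 was not analysed here. Of the 6 compared, 3 were called higher and 0 lower, where 16.5% of all compared rows were called higher and 12.0% lower. Their median log2 ratio was 0.87 (0.46 with equal sums), against 0.21 (−0.19) over all compared rows. S100a4, which lies on the other side of S100a5, was at 0.337 and 6.63, 19.7-fold higher (log2 ratio 2.51). S100z was at 19.4 and 73.2, 3.78-fold higher, and was the highest of the further S100 genes in both libraries. S100g, a small calbindin of intestine and uterus, had a value of 4.24 in O/Tet3, and the mOSN library lists it at 0. As deposited, S100a5 was thus the 1 lower call among the 10 compared S100 genes, of which 5 were called higher. Among these 5, S100g rests on a mOSN value listed at 0, which may stand for an estimate that failed. In the annotation S100g also overlaps Ctps2, so reads in the overlap could belong to either gene. S100a1, at 0.95, missed the threshold with equal sums. On chromosome 3 S100a5 lay between S100a4 and S100a6, both higher. After the shift of all rows was subtracted, with equal sums, or with a pseudocount of 0.1, S100a9 was also called lower. S100a8 and S100a9, which neutrophils make in bulk, were at 1.90 and 1.66 and at 4.00 and 1.76. They belong to 10 markers of neutrophils, macrophages and blood, of which 4 were compared and 0 called, and which summed to 27.3 in mOSN and 22.6 in O/Tet3. The highest of these in both libraries was Hba-a1, a hemoglobin gene, at 13.97 and 15.3, while Camp was listed at 0 in both and C1qa in O/Tet3.

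**Figure D3:**
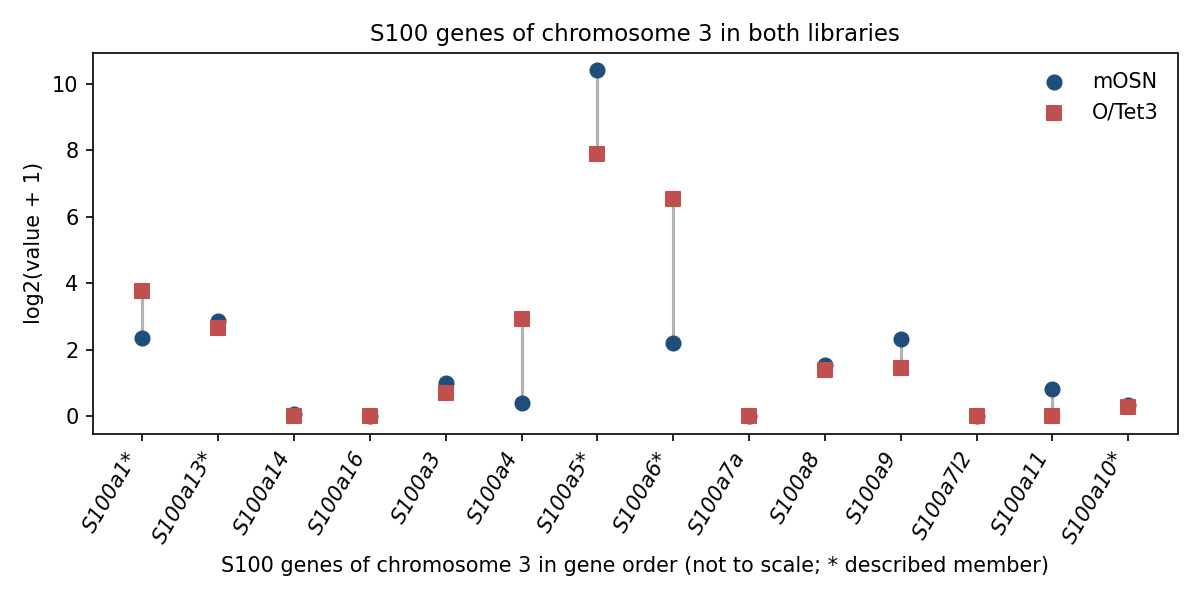
log2(value + 1) of the 14 S100 genes of chromosome 3 found in the table, in gene order and not to scale, in mOSN (circles) and O/Tet3 (squares), 1 library each; asterisks mark the genes described as members. S100a5 is highest in both libraries and lower in O/Tet3, and its neighbours S100a4 and S100a6 are higher in O/Tet3.

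Calcium-binding proteins outside the S100 family went in both directions. Among 11 further neuronal calcium sensors 4 were compared and 0 were called, with a median log2 ratio of −0.36. Ncs1 was at 3.04 and 1.15, the potassium channel partner Kcnip4 at 6.98 and 3.28, and Hpcal1, the closest relative of hippocalcin, at 4.13 and 8.50. After the shift of all rows was subtracted, with equal sums, or with a pseudocount of 0.1, Ncs1 and Kcnip4 were called lower, and with that pseudocount Hpcal1 was called higher. Among 14 calmodulins, calmodulin-like calcium-binding proteins and buffers 6 were compared, 1 was called higher and 1 lower (median −0.47). Calm3, a calmodulin gene, was at 319 and 92.8, 3.44-fold lower. Cabp1, a calmodulin-like regulator of calcium channels, was at 0.781 and 4.27, and Cabp4 at 5.03 and 2.10. Under the same 3 alternatives Cabp4 was also called lower. None of the 5 compared EF-hand proteins of the secretory pathway was called (median 0.29, or −0.20 with equal sums, where Nucb1 was called lower). Of these Nucb1 was at 58.4 and 36.0, Rcn2 at 2.40 and 4.17, and Nucb2 at 13.4 and 16.6.

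Known binding partners of S100 proteins went in both directions. Of 8 partners 5 were compared, 0 were called higher and 1 lower, where 16.5% of all compared rows were called higher and 12.0% lower. The median was 0.24 against 0.21 over all compared rows. With equal sums it was −0.066 against −0.19, and Syt1 was also called lower. The lower gene was Anxa1, the annexin that S100a11 binds, at 2.71 and 0.380. S100a11 itself was at 0.755 and listed at 0. Syt1, the synaptic vesicle calcium sensor that S100a13 can bind, was at 69.4 and 42.2.

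S100a5 and Calb2, which share a dependence on odor activity in the literature, differed in opposite directions here, and the list of 9 such genes was divided as well. Of the 9, all compared, 5 were called lower and 2 higher (7 and 1 with equal sums), and the median log2 ratio was −1.19. Over all compared rows 12.0% were called lower and 16.5% higher, with a median of 0.21. The list does not separate genes that activity raises from genes that it lowers. Its count and median therefore give no direction of activity. Beside S100a5 the largest differences were those of Kirrel2, a homophilic adhesion molecule of olfactory axons, at 57.1 and 3.47 (16.4-fold lower), and Lrrc3b, at 25.6 and 1.68 (15.2-fold lower). The other gene called higher was the protocadherin Pcdh10, at 8.51 and 28.2, named after its values were seen. Both S100a5 and Calb2 were themselves counted in this list.

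**Figure D4:**
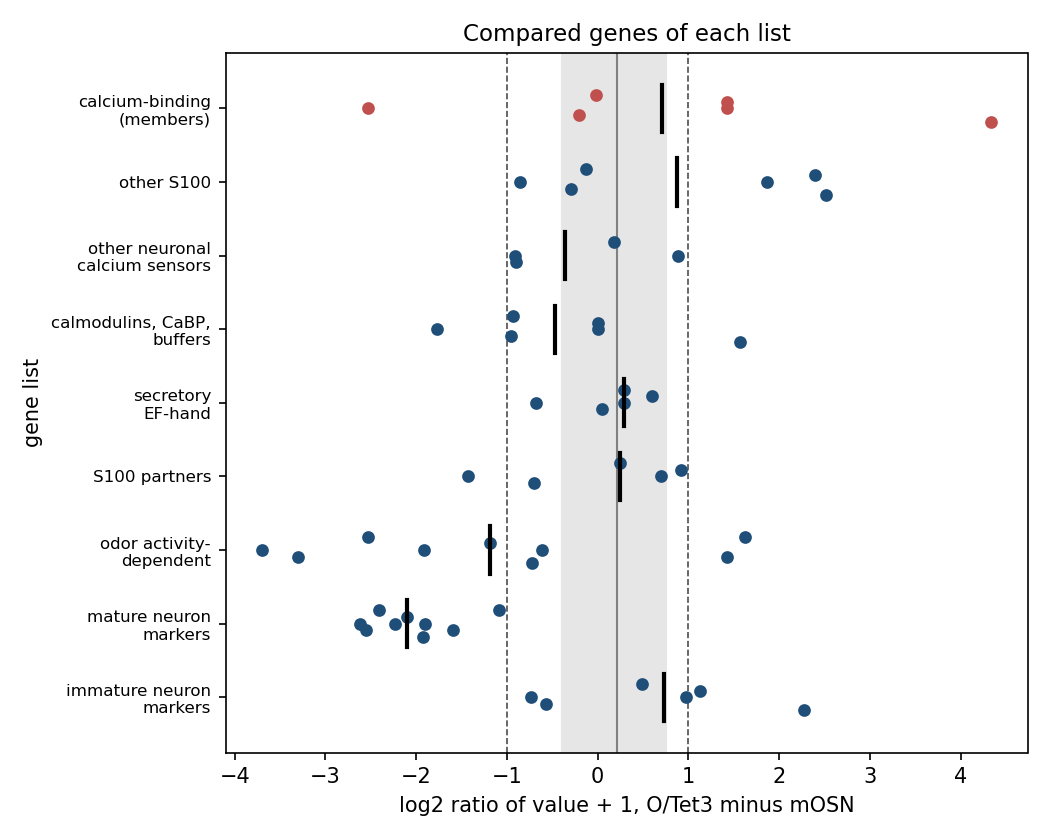
log2 ratio of value + 1, O/Tet3 minus mOSN, for the compared genes of each list (points, offset vertically to separate them) with the list median (black bar). The grey band and line give the quartiles and the median of all compared rows, and the dashed lines the threshold of 1. The mature neuron markers all lie below −1, and the 6 calcium-binding protein genes run from −2.53 to 4.33.

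Of the other cell types that the sorts could hold, the summed value of 7 sustentacular markers was 37.4 in mOSN and 18.2 in O/Tet3, with all 7 lower in O/Tet3 and Ugt2a1 (15.6 and 2.53) the highest in mOSN and Cyp2a5 (11.6 and 9.29) in O/Tet3. The 5 basal cell markers summed to 0.966 and 1.73, and Krt5, Krt14 and Trp63 were listed at 0 in O/Tet3, and Kit, at 0.741 and 1.73, was the highest in both. The 4 microvillous markers summed to 3.56 and 3.44, with Pou2f3 the highest in O/Tet3 (0.582 and 2.90), and Ascl3 (1.58 in mOSN) and Cftr were listed at 0 in O/Tet3. The 4 markers of guanylyl cyclase D neurons summed to 8.05 and 9.49, most of it Car2, at 7.79 and 7.26. Of the 2 compared, Cnga3, at 0.0564 and 1.42, was called higher, where 16.5% of all compared rows were. Pde2a was at 0.112 and 0.793 and Gucy2d at 0.0852 and 0.0123. Their part in the calcium-binding protein values was not tested.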

How the data were processed

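Per the labels' protocols, total RNA was depleted of ribosomal RNA, made into libraries and amplified by PCR. Bowtie, Bowtie2, Cuffdiff and build mm9 appear in the submitters' processing notes, with neither version nor role; annotation and strand setting are not given in the sources used here. The authors deposited log2 values per gene and library and their difference. From the file, these are log2(value + 1): the lowest is 0, and back-transformed values have at most 6 significant digits in 99.4% of mOSN and 99.3% of O/Tet3 values above 0.01 (tolerance 1e-09). The file names no linear unit. The worth of 1 read differs between genes (845 mOSN values above 0 and below 0.02 take 820 distinct values), so values are not scaled by depth alone; orders between genes assume a scale per length, as Cuffdiff reports.

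Log2 ratios, folds, ranks, counts and medians were computed with Python 3.11.15, numpy 2.4.6 and pandas 2.3.3, with a floor of 1 and a pseudocount of 1. As a check of the code only, the mOSN values of 34617 genes were set against themselves. There value + 1 of 200 genes above the floor was changed exactly 4-fold, without noise, and all 200 were recovered. The setting fixed that outcome, so it does not show how reliable a call between the 2 libraries is. Columns were assigned by name. The members, gene lists and alternatives were chosen with earlier results of these data known. Named genes are the 10 members, Tet3, Omp, up to 3 compared genes per list with the largest log2 ratio in size, the 3 genes nearest to S100a5 and to Calb2, the highest marker of each cell type and markers listed at 0. Some genes that this rule selects are left out of the text. RefSeq windows matched 6 of the 10 members; neighbours come from its GRCm38.p6 annotation. No p-value or interval was possible without replicates or counts.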

Additional observations from a re-analysis of the deposited data

How the results depend on the processing

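The directions and calls of S100a5, S100a6, S100a1 and Calb2 were the same with a pseudocount of 0.1, after centring, and with a floor of 5 or none. With the sums without the 6 largest rows made equal, a rescaling chosen after seeing the data, S100a1 and Calb2 missed the threshold: 1 member was higher and the median was 0.31. All 30 single-gene ratios of the 10 members kept their sign under that rescaling, a pseudocount of 0.1 and centring. At 3-fold, taken on value + 1, 1 member, S100a6, stayed higher, though S100a1 was 3.09-fold higher on the values themselves. The median of the members was 0.71 with a pseudocount of 0.1, 0.50 centred, 1.42 with a floor of 5 and −0.014 with no floor, where 4 low genes enter. For the other 6 lists together, which include S100 partners and odor activity-dependent genes, 5 genes were higher, 6 lower and the median −0.13; with a pseudocount of 0.1 these were 10 lower and −0.19, centred 11 lower and −0.33, with a floor of 5 3 higher and −0.31, with no floor a median of 0, and with equal sums 15 lower and −0.48. The median of the further calcium sensors was 0.18 with a floor of 5, and that of the S100 partners −0.029 with no floor and −0.066 with equal sums. With equal sums the median was −0.20 for secretory EF-hand proteins and −0.19 for all compared rows. Of 12943 compared rows, 2135 were called higher and 1552 lower, or 745 and 673 at 3-fold and 988 and 2302 with equal sums. With a floor of 5 these were 1401 and 793 of 7149 compared rows. The share called higher was then 19.6% against 16.5%, and the share called lower 11.1% against 12.0%. Apart from stricter thresholds, floors that test fewer or more genes, centring, which subtracts 0.21, and equal sums, which lower every ratio of a gene above 0 in O/Tet3, the cause was not tested. Values of S100a10, S100b, Calb1 and Hpca are limited by an unknown, small number of reads. No paired analysis was possible because there is only 1 library in each group.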
